A study of Mus musculus with 4 samples.

Results

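The genes described here are those that attach ADP-ribose in response to DNA breaks, the tankyrases, and the enzymes that take ADP-ribose off again, measured in erythroblasts sorted from Parp2 knockout and wild type mice. There were 10 such genes: the DNA-dependent polymerases Parp1, Parp2 and Parp3, the tankyrases Tnks and Tnks2, and the removal enzymes Parg, Adprs, Macrod1, Macrod2 and Oard1. A probe set, the group of probes summarised to 1 value, was a member when the platform annotation listed it to 1 of these genes and to no other. This gave 15 probe sets of 23410 with a gene name. Each gene had 1 probe set except Macrod2, which had 6, and Adprs was listed under its older symbol Adprhl2. No further probe set was listed to a member among several genes (0 probe sets).

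RNA was hybridised to 4 whole-transcript arrays, 2 from Parp-2-/- mice and 2 from wild type (WT) mice, both on the C57BL/6 background. The cells had been sorted from bone marrow for Ter119 and CD71, surface proteins of the red cell lineage. Both groups thus shared strain, tissue and gate. As far as the labels state, they differed in the Parp2 genotype and in the number that opens the sample titles. The age and sex of the mice, the part of Parp2 that the allele lacks, and whether each array came from its own animal are not stated in the labels, and p-values thus reflect only how far these arrays differ from each other, which may be technical. That first number is 1 or 2 for wild type and 3 or 4 for knockout, so it runs with genotype. The sample titles also carry replicate numbers 1 and 2 in each genotype, and no label says what either number marks.

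Poly(ADP-ribose) polymerases use NAD to build ADP-ribose on proteins. PARP1, PARP2 and PARP3 are switched on by DNA breaks, PARP1 makes most of the polymer, and PARP1 and PARP2 are known to share functions in repair, since mice lacking both die as embryos. Tankyrases modify other targets, among them telomere and Wnt pathway proteins. PARG shortens the chains, ADPRS removes ADP-ribose from serine, and the macrodomain proteins MACROD1, MACROD2 and OARD1 remove it from acidic residues. The comparison of the genotypes asked whether any of these other enzymes was expressed at another level in cells without Parp2.

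In the knockout arrays Parp2 itself was lower, and none of the 15 probe sets was higher on both knockout arrays than on both wild type arrays. Of the 15 probe sets 10 had a lower and 5 a higher mean in the knockout, 1 of the 5 at +0.00 on the log2 scale. Over all 23410 probe sets 10199 had a lower and 13211 a higher mean. Limma, which fits all probe sets together, called 0 of the 15 at an adjusted p under 0.05 (Benjamini-Hochberg), against 0% of all 23410. At an unadjusted p under 0.05 it called 1 of the 15, Parp2, against 2.08% of all. Parp2 missed that threshold when only probe sets above the median level were fitted, with trended and robust moderation, and with unnamed rows included. With 1 array left out its difference ran from -1.33 to -0.74. The groups did not overlap for 3 of the 15, all lower in the knockout (Parp2, Tnks and 1 Macrod2 probe set), where 9.42% of all probe sets were lower and 15.6% higher without overlap. With 2 arrays in each group the smallest two-sided p of an exact permutation test is 0.333, and no such test was run.

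**Figure D1:**
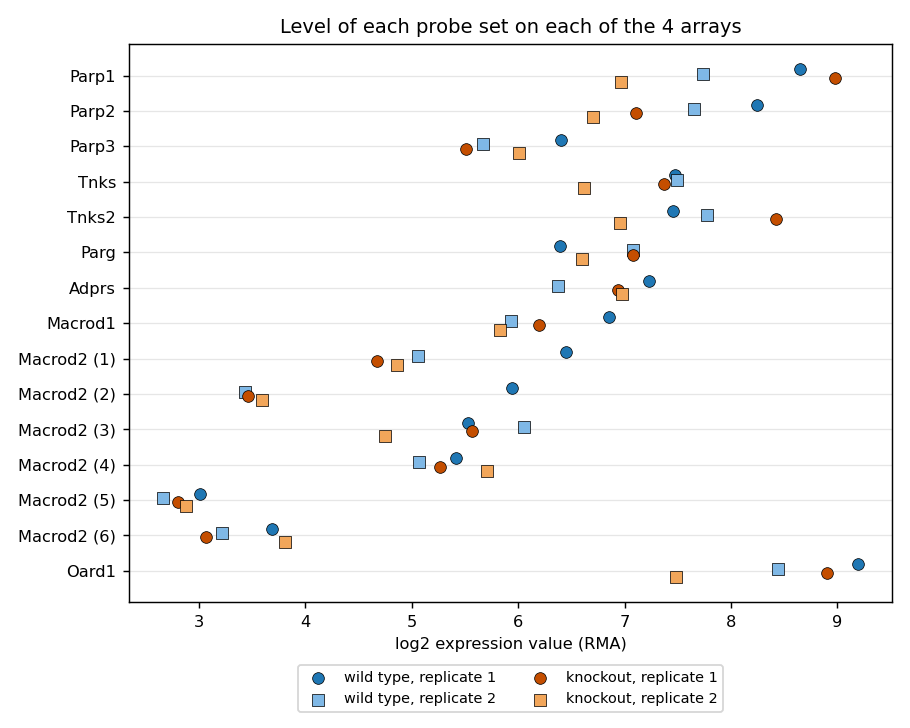
The log2 expression value (horizontal axis) of each of the 15 probe sets is shown on each array, with circles for replicate 1, squares for replicate 2, blue for wild type and orange for knockout. Both knockout points of Parp2 (7.11 and 6.70) lie left of both wild type points (8.24 and 7.65), whereas the 2 genotypes interleave for most other members. The Macrod2 probe sets are numbered in the order 10476582, 10476588, 10476590, 10476592, 10476594 and 10476596.

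Parp2, the targeted gene, was at 8.24 and 7.65 in wild type replicates 1 and 2 and at 7.11 and 6.70 in knockout replicates 1 and 2 (log2 values, here and below in the order of the replicates, probe set 10414497). Both knockout arrays were thus below both wild type arrays, but the knockout values were not at the bottom of the scale. The knockout minus wild type difference was -1.04 ± 0.40 (SE, n = 2 arrays per genotype), a 2.05-fold lower signal, with a 95% limma interval from -1.99 to -0.09. It did not pass the test over all probe sets (limma, adjusted p = 0.9999). By replicate number the difference was -1.13 for number 1 and -0.95 for number 2, so it had the same sign in both. Which exons the probe set covers was not analysed here; a probe set outside the deleted part would not report the deletion.

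The start of Parp2 lies beside Rpph1, the gene of the RNA component of RNase P, and the sequence of that interval is shown because Rpph1 was also lower in the knockout. The 300 bases around the Parp2 transcript start that the table uses, 250 before and 50 after it (RefSeq, GRCm38.p6, chr14:50807666-50807965, plus strand), are printed with the 106 bases that belong to Rpph1 in capitals. For comparison the same window of Parp1 (chr1:180568641-180568940, plus strand) has the letters of the GC box GGGCGG, on either strand, in capitals.
Parp2: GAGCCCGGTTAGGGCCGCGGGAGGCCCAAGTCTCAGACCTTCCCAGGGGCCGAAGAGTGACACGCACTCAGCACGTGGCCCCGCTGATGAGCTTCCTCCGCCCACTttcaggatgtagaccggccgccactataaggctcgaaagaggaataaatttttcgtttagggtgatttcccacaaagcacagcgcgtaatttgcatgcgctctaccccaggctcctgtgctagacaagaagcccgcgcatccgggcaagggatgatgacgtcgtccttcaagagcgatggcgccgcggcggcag
Parp1: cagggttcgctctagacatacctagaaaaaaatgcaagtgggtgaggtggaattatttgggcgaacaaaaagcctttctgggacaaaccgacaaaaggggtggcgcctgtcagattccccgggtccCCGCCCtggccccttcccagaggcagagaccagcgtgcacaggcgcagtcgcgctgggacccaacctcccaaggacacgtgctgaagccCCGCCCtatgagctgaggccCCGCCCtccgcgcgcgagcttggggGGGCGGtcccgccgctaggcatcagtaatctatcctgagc
Between the end of the Rpph1 bases and that transcript start lay 144 bases, and 125 bases lay between them and the first base of the RefSeq gene Parp2. They hold the octamer ATTTGCAT, a known element of small RNA gene promoters, which was found in 1.74% of all 32851 promoter windows of this length (both strands). Rpph1 itself read 12.21 and 12.25 in wild type and 9.87 and 10.74 in the knockout, a difference of -1.92 ± 0.42 (SE, n = 2 per genotype), with no overlap. Whether the lower values of the 2 neighbours are linked was not tested.

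Windows were present in the RefSeq table for 9 of the 10 genes (13 windows), all but Tnks. The 2 windows each of Parg, Macrod1 and Macrod2 overlapped almost completely, so window counts hold near duplicates. They were rich in CpG: the observed over expected CpG ratio was 0.69 for Parp1, 0.93 for Parp2, 0.65 for Parp3 and 1.03 for Tnks2, against a median of 0.38 over all windows. The GC box GGGCGG was in 8 of the 13 windows, against 35.7% of all windows. Of the 9 genes 5 held it: Parp1 with 4 copies, Macrod2 with 3 in each window, and Parp2, Macrod1 and Oard1. The single GC box of Parp2 fell within the Rpph1 bases. The E-box CACGTG was in Parp1, Parp2 and Macrod1 (4 of the 13 windows, against 7.15% of all windows). The single E-box of Parp2 also fell within the Rpph1 bases. No member window held TATAAA (0 of 13, against 13.6% of all) or the GATA letters AGATAA (0 of 13, against 11.2%). CCAAT was in Parp3 and Macrod2 (3 of 13, against 37.4% of all). Both strands were searched, and a match is a description of letters only.

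Parp1, the main DNA break-dependent polymerase and the gene closest to Parp2 in function, read 8.65 and 7.74 in wild type and 8.98 and 6.97 in the knockout (probe set 10352242). The highest and the lowest of the 4 values were both knockout arrays, so the genotypes overlapped completely. The difference was -0.22 ± 0.69 (SE), with a 95% interval from -1.87 to +1.43, which spans a 2.69-fold rise. Its sign turned with the replicate number, at +0.32 for number 1 and -0.77 for number 2. Without knockout replicate 2 the difference was +0.78, and without wild type replicate 1 it was +0.23.

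Parp3, which acts in the repair of double-strand breaks, read 6.40 and 5.67 in wild type and 5.51 and 6.01 in the knockout (probe set 10596492). Knockout replicate 1 was the lowest and wild type replicate 1 the highest of the 4. The difference of -0.28 ± 0.42 (SE) was smaller than the SD between the wild type arrays (0.51), and the interval ran from -1.28 to +0.73. Of the 3 break-dependent polymerases, Parp2 alone had groups that did not overlap.

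Among the tankyrases, Tnks read 7.47 and 7.49 in wild type and 7.37 and 6.62 in the knockout (probe set 10578157). Both knockout values were below both wild type values, with knockout replicate 1 close to them and knockout replicate 2 well below. The difference was -0.48 ± 0.40 (SE), 1.40-fold lower, with an interval from -1.45 to +0.48 (limma, adjusted p = 0.9999). Without knockout replicate 2 it was -0.11. Tnks2, its close paralog, read 7.46 and 7.77 in wild type and 8.42 and 6.96 in the knockout (probe set 10462724). As with Parp1, the knockout arrays held both the highest and the lowest value. The Tnks2 difference was +0.07 ± 0.54 (SE), with an interval from -1.20 to +1.35. By number it was +0.96 and -0.81, and with each array centred on its median the difference was 0.00.

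The hydrolase gene Parg, whose product breaks down poly(ADP-ribose) chains, read 6.39 and 7.08 in wild type and 7.08 and 6.60 in the knockout (probe set 10413853). Its groups lay in the same range, with a difference of +0.10 ± 0.42 (SE) and an interval from -0.89 to +1.09. Adprs, the gene of the serine ADP-ribose hydrolase, read 7.23 and 6.38 in wild type and 6.94 and 6.98 in the knockout (probe set 10516325). The knockout arrays lay between the wild type arrays. The Adprs difference was +0.15 ± 0.42 (SE), the highest mean difference among the genes with 1 probe set, and its interval ran from -0.85 to +1.15. It was -0.27 without wild type replicate 2.

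Of the macrodomain hydrolases, none passed the test and the probe sets did not all point the same way. Oard1, which removes ADP-ribose attached to glutamate, read 9.19 and 8.44 in wild type and 8.90 and 7.48 in the knockout (probe set 10445796). Knockout replicate 1 lay between the wild type arrays and knockout replicate 2 below both. The difference was -0.63 ± 0.56 (SE), with an interval from -1.96 to +0.70, and it was +0.08 without knockout replicate 2. Macrod1 read 6.85 and 5.93 in wild type and 6.20 and 5.83 in the knockout (probe set 10461038), where only wild type replicate 1 stood apart from the rest. Its difference was -0.37 ± 0.44 (SE), with an interval from -1.42 to +0.68, and +0.09 without wild type replicate 1.

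Macrod2, a paralog of Macrod1, had 6 probe sets, and they did not move as 1. The first, 10476582, read 6.45 and 5.06 in wild type and 4.68 and 4.86 in the knockout, a difference of -0.99 ± 0.52 (SE). It is the Macrod2 probe set without overlap, and the annotation lists it to another RefSeq transcript than the other 5. Probe set 10476588 read 5.94 and 3.44 in wild type and 3.46 and 3.60 in the knockout, a difference of -1.16 ± 0.77 (SE). Only wild type replicate 1 was high, and without that array the difference was +0.09. Wild type replicate 1 was also the highest array for 10476582, where the difference was -0.29 without it.

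Probe set 10476590 was high on the other wild type array, with 5.53 and 6.06 in wild type against 5.57 and 4.75 in the knockout, a difference of -0.64 ± 0.44 (SE). For 10476592 the values were 5.42 and 5.07 in wild type and 5.27 and 5.71 in the knockout, a difference of +0.25 ± 0.38 (SE). The remaining probe sets read between 2.67 and 3.01 (10476594) and between 3.07 and 3.81 (10476596) on the 4 arrays, with differences of +0.00 ± 0.36 and -0.02 ± 0.42 (SE). The mean over the 6 probe sets differed by -0.42 ± 0.40 (SE). None of the 6 passed the limma test (adjusted p = 0.9999 for each, 0 at an unadjusted p under 0.05). With the replicate number as a block, 3 of the 15 member probe sets were under an unadjusted p of 0.05 (against 6.12% of all), Parp2 and the Macrod2 probe sets 10476582 and 10476588. None of the 3 passed after adjustment (limma, adjusted p = 0.3438, 0.4197 and 0.2039). The block fit gave every member probe set the same SE (0.41). Its p-values therefore followed the size of the difference and not the agreement of the 2 numbers. For 10476588 the difference was -2.48 for number 1 and +0.17 for number 2.

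**Figure D2:**
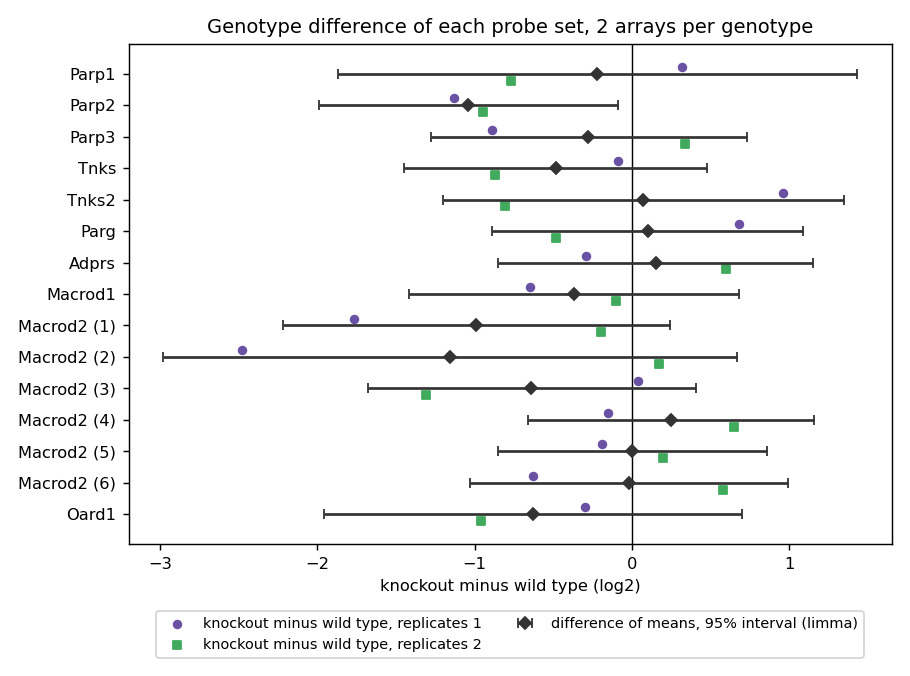
Knockout minus wild type differences on the log2 scale (horizontal axis) are shown for the 15 probe sets, as diamonds with the 95% limma interval, from 2 arrays per genotype, with circles and squares for the difference within replicate numbers 1 and 2. The interval of Parp2 (-1.99 to -0.09) is the one that leaves out 0, and for 10 of the 15 probe sets, Parp1 and Tnks2 among them, the circle and the square fall on opposite sides of 0, as for 51.4% of all probe sets.

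Taking the probe set with the highest mean for each gene, the 9 members other than Parp2 had 3 higher and 6 lower means, a median difference of -0.28 and a range from -0.64 to +0.15. Over all 19938 genes named alone 11663 were higher and 8275 lower, with a median of +0.08. Over the probe sets above the median mean level, which held 11 of the 15 member probe sets, the median was -0.11. Groups were higher without overlap for 0 of the 9, against 16.4% of all genes named alone. The 95% intervals of the 9 reached upward to +0.41 for Macrod2 (1.33-fold), +0.48 for Tnks (1.39-fold), +0.68 for Macrod1 (1.60-fold), +0.70 for Oard1 (1.63-fold), +0.73 for Parp3 (1.66-fold), +1.09 for Parg (2.13-fold), +1.15 for Adprs (2.22-fold), +1.35 for Tnks2 (2.55-fold) and +1.43 for Parp1 (2.69-fold). The Macrod2 values here (-0.64, upper bound +0.41) are those of probe set 10476590 alone. Its other probe sets reached from +0.24 (10476582, 1.18-fold) to +1.16 (10476592, 2.23-fold), and 10476592 had a higher knockout mean (+0.25). Rises of the sizes given were therefore within the error of these 4 arrays, and the missing calls do not show that the genotypes were alike. The median over the 9 genes ranged from -0.66 (without knockout replicate 1) to +0.08 (without knockout replicate 2).

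By replicate number, 0 of the 15 probe sets passed the limma test, where 3.09% of all were called. The lowest adjusted p was that of Parp1, which was lower on both number 2 arrays by -1.46 ± 0.36 (SE; limma, adjusted p = 0.060). Oard1 (-1.09 ± 0.38, SE) and Macrod1 (-0.65 ± 0.34, SE) were the other members whose number 2 arrays both lay below both number 1 arrays. These 3 of the 15 are near the share of all probe sets (22.2%). For 9 of the 15 the number 2 minus number 1 difference was larger in size than the genotype difference, also near the share of all (62.2%). For 4 of the 15 it had the same sign in both genotypes, against 61.1% of all. The 4 were Parp1, Parp2, Macrod1 and Oard1. All 6 Macrod2 probe sets had opposite signs, so 1 gene weighs heavily on this count.

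Cell type markers differed by number as well. Of all probe sets 56.7% had a higher number 2 mean, with a median of +0.08. Erythroid markers were higher on number 2 for 10 of 12 (median +0.55), megakaryocyte and platelet markers for 5 of 6 (median +0.80) and T and NK cell markers for 8 of 10 (median +0.44). B cell markers were higher for 6 of 9 (median +0.45) and monocyte and macrophage markers for 6 of 10 (median +0.24). Those of mast cells, basophils and eosinophils were higher for 4 of 9 (median -0.12), and neutrophil markers for 1 of 12 (median -0.60). Their part in the members' values was not tested.

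**Figure D3:**
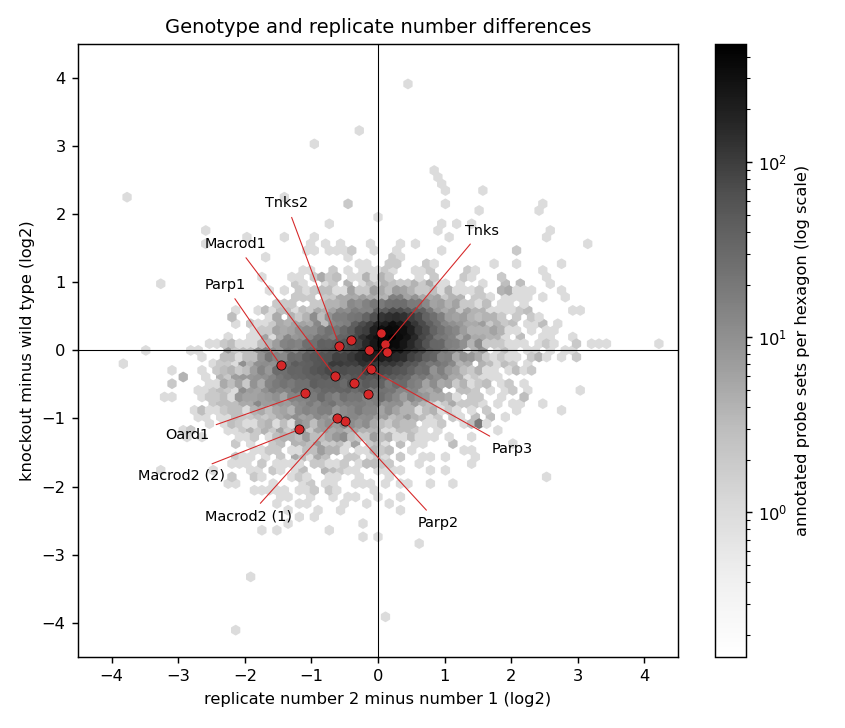
Each red point is a member probe set, placed by its replicate number difference (horizontal axis, log2) and its genotype difference (vertical axis, log2), over a grey density of all 23410 annotated probe sets. Parp1 lies far to the left at -1.46 and near 0 by genotype, and Parp2 lies lower (-1.04) and less far left (-0.50).

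The profile of Parp2 over the 4 arrays was set against 21788 other single-gene probe sets, by the root mean square distance after each one's own mean was removed. The nearest were Esco1 (distance 0.0178), a cohesin acetyltransferase, B3gnt5 (0.0205), a glycolipid glycosyltransferase, Zfp729b (0.0421), a zinc finger gene, Ccnd2 (0.0507), cyclin D2, and Hk3 (0.0536), a hexokinase of myeloid cells. Their genotype differences lay between -1.10 (Zfp729b) and -0.97 (Hk3), near that of Parp2 because they were picked by this distance. With 4 arrays such likeness describes these values only. Of the other members the nearest on this measure were Macrod1 (rank 991), the Macrod2 probe set 10476582 (998), Tnks (1228) and Oard1 (1739), and Parp3 (3676) and Parp1 (11581) ranked further away.

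Markers of several other blood cell types had lower means in the knockout beside Parp2, although none passed the limma test over all probe sets (0 in each list). These marker lists were chosen with earlier results of these data known. Of all 19938 genes named alone 8275 were lower and 11663 higher. All 12 measured neutrophil markers had lower knockout means, with a median of -1.59. Of the 12, 10 were lower without overlap (against 9.42% of all probe sets) and 7 had an unadjusted limma p under 0.05 (against 2.08%, in either direction). The mean log2 level of the 12 was 9.52 to 10.39 in wild type and 8.19 to 8.87 in the knockout, with Chil3 (-1.96) and Ltf (-1.35) of lowest p. Of 9 measured B cell markers 8 were lower, each of the 8 without overlap, with a mean level of 7.10 to 7.59 in wild type and 6.01 to 6.06 in the knockout, led by Ms4a1 (-2.00) and Vpreb1 (-2.90). Monocyte and macrophage markers (8 of 10 lower, median -0.66, Adgre1 at -1.12 and Lyz2 at -0.97), those of mast cells, basophils and eosinophils (7 of 9, median -0.47, Mcpt8 at -2.24 and Prg2 at -1.54) and of T and NK cells (8 of 10, median -0.38, Nkg7 at -1.63 and Cd3g at -0.92) had mostly lower means. Megakaryocyte and platelet markers had 4 of 6 higher (median +0.14, Pf4 at +1.14 and Gp9 at -0.62). No marker was at 0, because RMA values have no zero. Their part in the differences of Parp2 and of the other members was not tested. In bulk RNA fewer cells of a type and less RNA per cell cannot be told apart. The erythroid markers themselves had a median difference of +0.10, with 8 of 12 higher and 0 without overlap, among them Alas2 (+0.55) and Tal1 (+0.27). Tfrc, which encodes the sorted protein CD71, read between 10.35 and 11.43. The mean log2 level of the 12 erythroid markers was 9.95 and 10.92 in wild type and 10.39 and 10.73 in the knockout. The neutrophil markers thus read in a similar range in wild type.

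The other genes of ADP-ribose metabolism were read from lists chosen with earlier results of these data known. Of the 50 measured genes, 0 passed the limma test or an unadjusted p under 0.05 (2.08% of all probe sets were under the latter). For the direction counts of these lists, 11663 of all 19938 genes named alone were higher in the knockout. Without overlap, 16.4% of genes named alone were higher and 9.42% of all probe sets were lower. Of the 10 measured mono-ADP-ribosyltransferase PARPs, which attach single units, 6 were higher and 4 lower, with a median of +0.03. Without overlap 1 was higher and 2 were lower. Parp6 (-1.07 ± 0.46, SE) was lower without overlap, Parp8 (-1.29 ± 0.65, SE) was lower with overlap, and Tiparp (+0.69 ± 0.38, SE), a target of the aryl hydrocarbon receptor, was higher on both knockout arrays (5.94 and 6.39) than on the wild type arrays (5.33 and 5.63). Parp4 had no probe set naming it alone.

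Partners of PARP1 and PARP2 had 7 of 13 measured genes higher and a median of +0.12. Without overlap 2 were higher, Rnf146 among them, and 2 were lower. Hpf1, the cofactor that directs both enzymes to serine, differed by +0.20 ± 0.43 (SE), and Xrcc1, the scaffold recruited by poly(ADP-ribose), by +0.13 ± 0.40 (SE). Rnf146, the ubiquitin ligase that reads poly(ADP-ribose) made by tankyrases, differed by +0.22. Macroh2a1, a histone variant whose macrodomain binds ADP-ribose, had the lowest p of the list. It read 8.04 and 7.35 in wild type and 7.05 and 6.31 in the knockout, a difference of -1.02 ± 0.45 (SE) without overlap. Timeless (-0.54) and Polb (-0.25), the repair polymerase, came next. Among other hydrolases and pyrophosphatases of ADP-ribose 3 of 5 were lower, with a median of -0.03, led by Adprm (-0.83), Nudt16 (+0.47) and Nudt5 (+0.28).

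Tankyrase substrates and partners had 9 of 13 measured genes higher, with a median of +0.06. Without overlap 2 were higher and 1 was lower, where 16.4% of genes named alone were higher and 9.42% of all probe sets lower. Sh3bp2, an adaptor that tankyrase marks for degradation, read 7.02 and 7.01 in wild type and 6.20 and 6.32 in the knockout, a difference of -0.75 ± 0.35 (SE) without overlap. Axin2 (+0.36) and Axin1 (+0.35), scaffolds of the β-catenin destruction complex, were higher on both knockout arrays, and Amotl1 differed by +0.54. NAD synthesis genes had 7 of 9 higher and a median of +0.23. Of all 19938 genes named alone 11663 were higher (median +0.08). Nampt, the rate-limiting enzyme of NAD salvage, read 5.55 and 5.99 in wild type and 6.05 and 4.12 in the knockout, a difference of -0.68 ± 0.64 (SE) in which knockout replicate 2 was the low array. Qprt (+0.53) and Nmrk1 (+0.37) were the other NAD genes of lowest p.

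**Figure D4:**
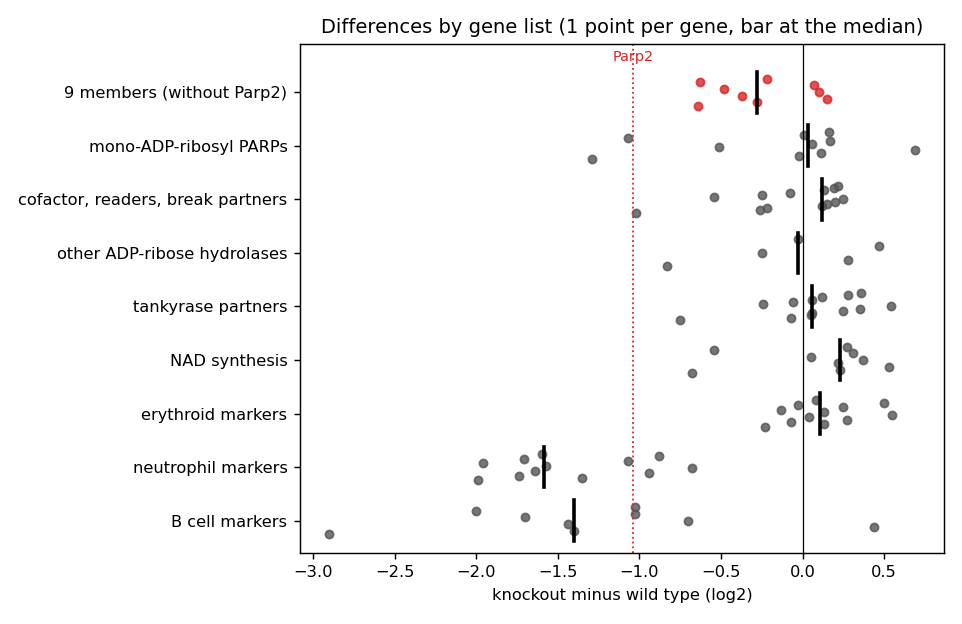
Each point is a gene's knockout minus wild type difference (horizontal axis, log2), grouped by list, with a black bar at the list's median and a dotted line at Parp2 (-1.04). The 9 other members (red, median -0.28) and the ADP-ribose lists (medians from -0.03 to +0.23) lie around 0, while neutrophil (-1.59) and B cell markers (-1.40) lie to the left.

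The median array value lay between 5.23 and 5.49, and the interquartile range was narrowest on knockout replicate 2 (1.98 against 2.62 to 2.94). Correlations between arrays across probe sets ran from 0.901 to 0.965, the lowest between wild type replicate 1 and knockout replicate 2. Limma called 0 of 23410 probe sets by genotype, with 486 at an unadjusted p under 0.05.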

How the data were processed

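The deposited values are log2 expression of 35511 probe sets on 4 arrays, in 1 table by the authors. The submitters' processing notes name R 3.0.2, limma and RMA without roles. As a method, RMA corrects background, quantile-normalises and summarises probes, and compresses differences of dim probe sets. Over the named probe sets, however, the deposited columns did not share a common spread. The interquartile range was 1.98 on knockout replicate 2 and 2.62 to 2.94 on the other arrays. Repeating quantile normalisation moved the median difference of the member genes other than Parp2 from -0.28 to -0.12. Whether the narrower spread lowered the members' readings on knockout replicate 2 was not tested. No source used here names a genome build. Per the labels, 100 ng of total RNA was labelled per sample. Of the probe sets, 21789 had 1 symbol in the platform annotation, 1621 had several, 12101 were unnamed, and only the 23410 named ones were tested.

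The genotype test used limma 3.58.1 under R 4.3.3 (functions lmFit and eBayes, no covariate, 2 residual and 4.77 prior degrees of freedom), with Benjamini-Hochberg adjustment over all 23410 probe sets and 95% moderated intervals. The fit was first tested on simulated data. Replicate numbers were compared in the same way. The number of arrays limits precision. A gene on a list was represented by its single-gene probe set of highest mean. Named were all member probe sets, the 3 genes of lowest p per pathway list with the known partners Hpf1, Xrcc1, Rnf146, Nampt and Axin2 (Adprh had no probe set naming it alone), the 2 of lowest p per marker list, the 5 profiles nearest to Parp2, and Rpph1, Axin1, Parp4, Alas2, Tal1 and Tfrc beside them. Rpph1 was chosen as the neighbour of Parp2 after its values were known. Members and lists were chosen with earlier results of these data known. Alternatives were a replicate block, leaving out each array, centring, repeated quantile normalisation, the probe sets above the median level, array weights, trended and robust moderation, inclusion of unnamed rows, an unadjusted threshold, and averaging a gene's probe sets.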

Additional observations from a re-analysis of the deposited data

How the results depend on the processing

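Of the member probe sets, 0 passed in the 11 alternative fits; all 15 were in each fit but that of probe sets above the median level, which held 11. At an unadjusted p under 0.05 the count was 1 (Parp2). Parp2 missed that unadjusted threshold with probe sets above the median level, with trended and robust moderation, and with all rows of the table. Its adjusted p was 0.3438 with the replicate block, the lowest of the 11, and its difference was negative in each, from -1.33 to -0.74. Over all probe sets the count past the test (0) was 274 with the replicate block, which leaves 1 residual degree of freedom, 8 with trended and robust moderation, 486 at an unadjusted p under 0.05, and 0 to 62 with 1 array left out (5 without wild type replicate 1, 62 without wild type replicate 2). The block called no member (0), and 3 of 15 (Parp2 and the Macrod2 probe sets 10476582 and 10476588) had an unadjusted p under 0.05, against 6.12% of all. The block fit used the same SE (0.41) for every member probe set. Its calls thus follow the size of the difference and do not weigh whether the 2 numbers agree. Whether the numbers pair the arrays is not shown: across probe sets, the number 2 minus 1 difference of wild type correlated with that of the knockout at 0.468, from only 2 pairs. The median over the 9 genes other than Parp2 ranged from -0.66 to +0.08 with 1 array left out, and from -0.35 (centred) to -0.12 (repeated quantile normalisation) in the other settings.

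With 1 array left out, the sign turned for these differences, given by their lowest and highest values: Parp1 -1.23 to +0.78, Parp3 -0.64 to +0.09, Tnks2 -0.66 to +0.80, Parg -0.24 to +0.45, Adprs -0.27 to +0.58, Oard1 -1.34 to +0.08, Macrod1 -0.83 to +0.09, and Macrod2 -2.41 to +0.09 (10476588), -0.16 to +0.17 (10476594) and -0.39 to +0.35 (10476596). It held for Parp2, Tnks and the other 3 Macrod2 probe sets. Centring gave -0.07 for 10476594 and 0.00 for Tnks2, and repeated quantile normalisation -0.01 for 10476594. The causes were not tested.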
